A study of Homo sapiens with 10 samples.

Results

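The receptors for the transmitters GABA, glutamate, acetylcholine and glycine were described here at the level of histone acetylation. The rule took every GENCODE release 44 protein-coding gene whose symbol begins with the family stems of the GABA-A (GABR), AMPA (GRIA), NMDA (GRIN), kainate (GRIK), delta (GRID), metabotropic glutamate (GRM), nicotinic (CHRNA, CHRNB), muscarinic (CHRM) and glycine (GLRA) receptors. This gave 66 of 20033 protein-coding genes. Of the 66, 65 code for receptor subunits or receptors. GRID2IP was taken by its symbol alone and codes for delphilin, a scaffold protein that binds a delta receptor.

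Acetyl groups on lysines 27 and 18 of histone H3 (H3K27ac and H3K18ac) were mapped by ChIP-Seq, the sequencing of DNA pulled down with an antibody, in 2 human prostate cancer cell lines, C4-2B and C4-2BER. C4-2B is a castration-resistant derivative of LNCaP with an adenocarcinoma phenotype. C4-2BER was derived from it by selection for resistance to enzalutamide, a drug against prostate cancer that blocks hormone signalling. It is described by the study as neuroendocrine-like and was kept in the drug, while no drug is stated for C4-2B. Each mark and cell line had 2 libraries, and each cell line had 1 input library, which makes 8 ChIP and 2 input libraries. The comparison is between a single derived line and its parent, so line, selection and continued drug exposure cannot be told apart.

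The 2 libraries of a mark and cell line were merged by the authors before peak calling, so that each of the 4 peak lists holds a single pooled value per region and replicate error cannot be given. All differences below describe these pooled libraries and carry no test. The value of a peak is its fold enrichment, the ChIP signal over the background of its own list, averaged by the peak caller over the whole peak. No common scale joins the lists, and differences in background and pull-down therefore enter every ratio between them. The depth of the libraries is unknown, because the lists hold no read counts. The H3K27ac lists held 72971 peaks in C4-2BER against 68034 in C4-2B, and the H3K18ac lists held 197948 and 198451.

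As background, most of these receptors are subunits that assemble into ion channels opened by a transmitter. GABA-A and glycine receptors pass chloride and usually quiet a neuron, whereas AMPA, NMDA, kainate and nicotinic receptors pass cations and excite it. The metabotropic glutamate and muscarinic receptors act through G proteins. Their genes are mostly long and active in neurons, and several are also known from epithelial, muscle and gland cells. H3K27ac and H3K18ac mark active promoters and enhancers, so a promoter peak is a sign of open, active chromatin and not a measure of transcript.

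The cell labels were checked with marker genes at promoters, defined throughout as 1000 bp on both sides of the canonical transcription start site (TSS). All 9 prostate luminal markers, among them KLK2 and KLK3, carried both marks at the promoter in each cell line. None of the 9 differed by 2-fold or more, and KLK3 had an H3K27ac fold enrichment of 13.8 in C4-2BER against 20.3 in C4-2B. Of 8 neuroendocrine markers, 3 had an H3K27ac promoter peak in C4-2BER against 2 in C4-2B. CHGA, CHGB, INSM1, NCAM1 and SCG3 had no H3K27ac promoter peak in either cell line, so at these promoters the neuroendocrine-like label was not visible. ENO2, a neuronal enolase, was at 7.30 in C4-2BER against 4.00 in C4-2B.

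The promoter stretches on which the account turns are given first. They are the 250 bases before the canonical TSS in GRCh38, written 5′ to 3′ on the strand of the gene, and capitals mark CpG dinucleotides. None of them overlaps an annotated exon. GRIN3A, GRIK2 and GRIN2D are shown because their promoters differed most between the cell lines in H3K27ac, CHRNA5 because it was among the strongest in both, and GABRR3 as a member with no promoter peak in any list.
GRIN3A (chr9:101738648-101738897, minus strand): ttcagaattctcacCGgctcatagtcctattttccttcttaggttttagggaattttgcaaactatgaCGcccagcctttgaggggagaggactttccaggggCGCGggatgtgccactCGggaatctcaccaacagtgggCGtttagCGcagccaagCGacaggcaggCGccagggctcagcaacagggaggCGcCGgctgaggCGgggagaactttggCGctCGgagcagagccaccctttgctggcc
GRIK2 (chr6:101393458-101393707, plus strand): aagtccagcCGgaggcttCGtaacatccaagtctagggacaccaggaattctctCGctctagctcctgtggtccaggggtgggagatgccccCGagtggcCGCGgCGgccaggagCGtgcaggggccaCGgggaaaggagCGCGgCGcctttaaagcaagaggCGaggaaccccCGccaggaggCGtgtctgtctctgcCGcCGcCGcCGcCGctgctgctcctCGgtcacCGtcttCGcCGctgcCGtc
GRIN2D (chr19:48393418-48393667, plus strand): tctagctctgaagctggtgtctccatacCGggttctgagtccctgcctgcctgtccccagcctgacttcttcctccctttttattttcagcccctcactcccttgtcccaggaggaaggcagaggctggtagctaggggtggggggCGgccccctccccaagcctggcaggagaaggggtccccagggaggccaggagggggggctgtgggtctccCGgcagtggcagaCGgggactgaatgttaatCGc
CHRNA5 (chr15:78565270-78565519, plus strand): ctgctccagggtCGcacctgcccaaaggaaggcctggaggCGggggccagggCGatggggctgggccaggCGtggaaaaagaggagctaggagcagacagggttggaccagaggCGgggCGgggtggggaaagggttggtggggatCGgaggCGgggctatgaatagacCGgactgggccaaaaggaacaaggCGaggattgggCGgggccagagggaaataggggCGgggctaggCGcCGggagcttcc
GABRR3 (chr3:98035316-98035565, minus strand): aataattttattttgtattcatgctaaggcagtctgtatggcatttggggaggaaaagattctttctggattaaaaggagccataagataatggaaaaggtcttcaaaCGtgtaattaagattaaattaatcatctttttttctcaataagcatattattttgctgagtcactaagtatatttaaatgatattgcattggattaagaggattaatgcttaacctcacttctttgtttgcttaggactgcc
The stretch of GRIK2 held 25 CpG dinucleotides, those of GRIN3A and CHRNA5 held 14 each and that of GRIN2D held 5, while GABRR3 had 1. Their GC content was 68.0% for GRIK2, 67.6% for CHRNA5, 63.6% for GRIN2D, 58.8% for GRIN3A and 30.8% for GABRR3.

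Acetylated promoters were less common among the receptor genes than among protein-coding genes in general. An H3K27ac promoter peak was found for 23 of 66 receptor genes in C4-2BER (34.8%, against 69.6% of all protein-coding genes) and for 24 in C4-2B (36.4%, against 69.1%). H3K18ac was wider, with 40 receptor genes in C4-2BER (60.6%, against 81.1%) and 46 in C4-2B (69.7%, against 83.8%). In these bulk cultures, fewer cells with a mark and less of it per cell cannot be told apart. Where a peak was present it was also low. The median H3K27ac promoter fold was 3.28 for the receptor genes and 12.4 for all genes in C4-2BER, and 4.54 and 18.2 in C4-2B. For H3K18ac the medians were 3.43 and 5.59 in C4-2BER, and 3.62 and 7.00 in C4-2B. Receptor promoters with a peak were therefore lower at the median than other promoters in both marks and cell lines, although their H3K18ac medians lay above those of all H3K18ac peaks, 2.55 and 2.74.

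**Figure D1:**
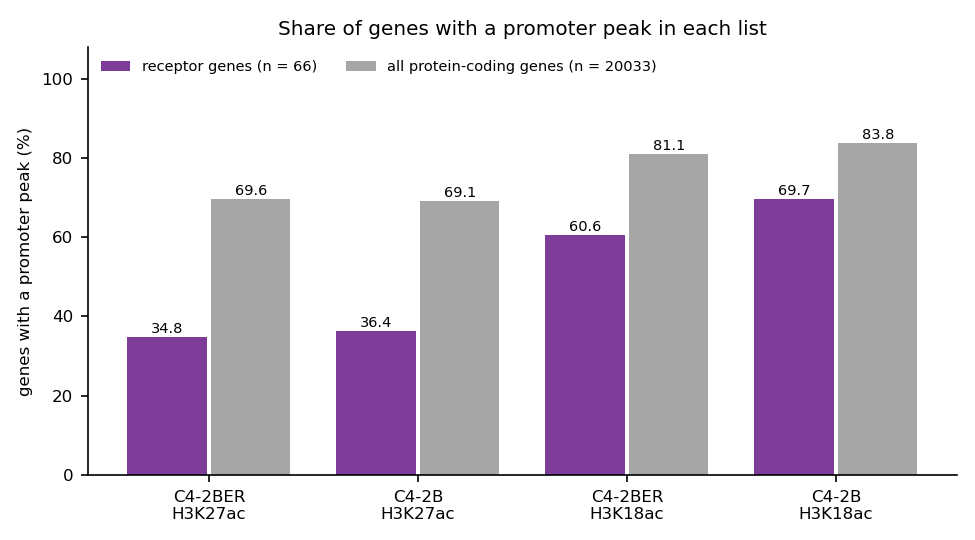
Share of genes (percent, y axis) with a peak within 1000 bp of the canonical TSS in each of the 4 lists (x axis), for the 66 receptor genes (purple bars) and all 20033 protein-coding genes (grey bars). In each list the receptor genes lie below all genes, from 34.8% against 69.6% in C4-2BER H3K27ac to 69.7% against 83.8% in C4-2B H3K18ac.

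A peak in all 4 lists was found for 21 members (31.8%, against 66.4% of all genes), a peak in 1 to 3 lists for 28 (42.4%, against 19.7%), and none in any list for 17 (25.8%, against 13.9%). No member had H3K27ac without H3K18ac in either cell line, a state held by only 0.474% (C4-2BER) and 0.424% (C4-2B) of all genes. The opposite state, H3K18ac alone, was held by 17 members in C4-2BER (25.8%, against 12% of all genes) and by 22 in C4-2B (33.3%, against 15.1%). The AMPA receptor genes GRIA1 and GRIA3 and the NMDA subunit gene GRIN2A were in this state in both cell lines, as were the kainate subunit genes GRIK1, GRIK3 and GRIK5. These 6 genes were picked as examples after their values were seen.

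The families differed in how much of them was acetylated. All 5 kainate subunit genes had an H3K18ac promoter peak in both cell lines, and 2 of 5 had H3K27ac in both. Of the 12 nicotinic subunit genes, 6 had H3K27ac in each cell line, and H3K18ac was found at 10 in C4-2BER and 9 in C4-2B. Of the 5 muscarinic receptor genes, 3 had H3K27ac in each cell line. By contrast, none of the 3 glycine receptor alpha subunit genes had a promoter peak in any list, and none of the 4 AMPA genes had H3K27ac in either cell line. The GABA-A family was split, with 5 of 19 genes in all 4 lists and 9 of 19 in none. GABRA6, which codes for a subunit of cerebellar granule cells, was among these 9. The counts rest on few genes per family and were not tested.

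The presence of a peak went with base composition. Members with a promoter peak in all 4 lists had a median GC content of 63.8% and a CpG observed to expected ratio of 0.686 in the 2001 bp window. Members without a promoter peak had 45.2% and 0.415. All protein-coding genes showed the same order, with 58.1% and 0.70 for those in all 4 lists and 41.9% and 0.218 for those in none. The members as a whole were close to all genes in GC content, with medians of 56.1% and 56.0%, and somewhat lower in the CpG ratio, with 0.586 and 0.636.

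Between the cell lines, a promoter was counted as increased in C4-2BER when C4-2B had no peak there or a fold enrichment 2 times lower or less, and as decreased in the mirrored case. For H3K27ac, 2 members were increased (3.03%, against 3.31% of all genes), CHRNB4 and GABRB1. In the same mark 7 were decreased (10.6%, against 8.01%), namely CHRNA2, CHRNA4, CHRNA7, GRIK2, GRIN2C, GRIN2D and GRIN3A. For H3K18ac, 3 were increased (4.55%, against 2.1%), CHRNA6, CHRNB3 and GABRA2. In H3K18ac 10 were decreased (15.2%, against 6.12%). In both marks together, no member was increased (0.349% of all genes) and 1 was decreased (1.52%, against 1.19% of all genes). That member was GRIN3A. As deposited, the shares for H3K27ac lay nearer to those of all genes than the share of decreased H3K18ac promoters did, and the shares after rescaling follow.

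The ratio also moves with the scaling. Over all genes with an H3K27ac promoter peak in both cell lines the median log2 ratio of C4-2BER to C4-2B was -0.51, and it was -0.11 after the lists were rescaled by a line fitted over shared regions. For H3K18ac these values were -0.34 and -0.14. Among all genes the increased share of changed H3K27ac promoters was 29.2% as deposited and 53.1% after rescaling, and among the members it was 22.2% and 25.0%. After rescaling 6 members were decreased in H3K27ac (9.09%, against 3.2% of all genes), since CHRNA7 was lost, and 2 were increased (3.03%, against 3.63%). For H3K18ac 10 were decreased (15.2%, against 5.04%) and 3 increased (4.55%, against 2.2%). Rescaling thus lowered the share of decreased promoters more among all genes than among the members. It cannot change a call that rests on a peak in 1 cell line only, so part of this difference was fixed in advance. Such calls were 3 of the 7 decreased H3K27ac promoters of the members and 456 of the 1605 of all genes. In H3K18ac they were 9 of 10 and 940 of 1226. The 21 members with H3K27ac in both cell lines had a median log2 ratio of -0.19 (95% interval over genes -0.85 to 0.092), with 15 below 0 (71.4%, against 88.2% of all genes), and of -0.17 after rescaling, with 13 below 0 (61.9%, against 63.6%). They therefore lay above the median of all genes as deposited and slightly below it when rescaled. The 37 members with H3K18ac in both had a median of -0.24 (-0.43 to -0.11), with 35 below 0 (94.6%, against 85.8%), and of -0.09 after rescaling, with 25 below 0 (67.6%, against 68.0%).

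GRIN3A was the member lower in C4-2BER in both marks. It codes for GluN3A, an NMDA receptor subunit that lowers the calcium permeability of the channel. In H3K27ac it had no promoter peak in C4-2BER and a fold enrichment of 29.9 in C4-2B, above 98.2% of the peaks of that list. In H3K18ac it had a peak of 2.51 in C4-2BER and of 13.8 in C4-2B, and the latter was above 99.8% of its list. In C4-2B these were the highest promoter values of any receptor gene in both marks. The H3K27ac peak of C4-2B spanned 2043 bp at chr9:101736963-101739005 and covered the TSS. Over the whole gene body, the promoter included, C4-2B had 4 H3K27ac peaks and C4-2BER had 0, and H3K18ac peaks numbered 10 and 1. The call in H3K27ac held under every alternative tried.

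The other NMDA receptor genes were weaker than GRIN3A in C4-2B, and several were stronger than it in C4-2BER. GRIN2D codes for a glutamate-binding subunit with slow channel closure. Its H3K27ac promoter peak was 2.86 in C4-2BER against 20.3 in C4-2B, while H3K18ac was 5.96 and 6.32. In each cell line a single H3K18ac peak covered the TSS of GRIN2D and that of its neighbour KDELR1, so these H3K18ac values are shared. The C4-2B H3K27ac peak of 4390 bp also covered the TSS of KDELR1, which lies at -2117 bp from that of GRIN2D. In C4-2BER the KDELR1 side was a separate peak with a fold enrichment of 23.9 that ended at -1672 bp. With a window of 2000 bp the log2 ratio of GRIN2D was 0.24 in place of -2.82. The value of GRIN2D thus turned on the limits of the peaks, and the region from KDELR1 to GRIN2D held strong H3K27ac in both cell lines.

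**Figure D2:**
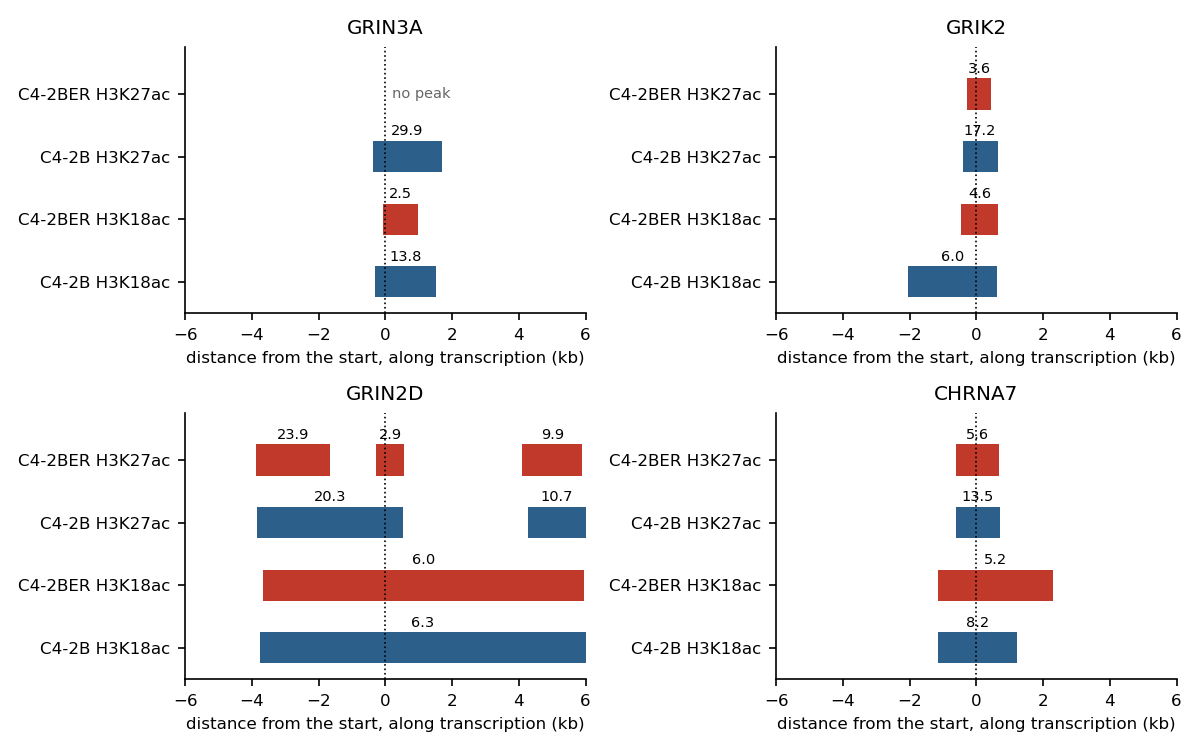
Peaks (bars, with their fold enrichment above) within 6 kb of the TSS (dotted line) of GRIN3A, GRIK2, GRIN2D and CHRNA7, plotted along the direction of transcription (x axis, kb) for the 4 lists (rows), C4-2BER in red and C4-2B in blue. GRIN3A has no H3K27ac peak in C4-2BER, and at GRIN2D the 20.3-fold peak of C4-2B covers ground that C4-2BER splits into peaks of 23.9 and 2.86.

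GRIN1, the subunit every NMDA receptor needs, had no H3K27ac promoter peak in either cell line. Its H3K18ac peak was 2.56 in C4-2B and absent in C4-2BER. Inside the gene, however, H3K27ac peaks covered 33.0% of the body in C4-2BER against 41.9% in C4-2B, with fold enrichments up to 22.4 and 28.9. GRIN2B was similar at the promoter, with H3K18ac of 2.23 in C4-2B only. Its body was unlike that of GRIN1, with H3K27ac peaks over 0.499% in C4-2BER against 0.204% in C4-2B and fold enrichments up to 3.67 and 3.56. GRIN2C had a faint H3K27ac peak of 2.43 in C4-2B only, beside H3K18ac of 2.63 in C4-2BER against 3.20 in C4-2B. GRIN3B ran the other way in H3K27ac, at 2.79 in C4-2BER against 2.40 in C4-2B. Of the 7 NMDA genes, 3 were decreased in H3K27ac (8.01% of all genes) and 3 in H3K18ac (6.12% of all genes), GRIN3A in both, and none was increased in either. The H3K27ac call of GRIN3A held under every alternative. Its H3K18ac call was lost only when calls were made by presence alone, because both cell lines had a peak. The other calls changed with the processing. GRIN2D was lost with the 2000 bp window, and GRIN2C, GRIN1 and GRIN2B were lost at stricter peak thresholds.

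Among kainate receptor genes, GRIK2 and GRIK4 had opposite ratios. GRIK2, which codes for the channel-forming subunit GluK2, had H3K27ac of 3.61 in C4-2BER against 17.2 in C4-2B, a log2 ratio of -2.25. Its H3K18ac was closer, at 4.57 and 6.01. GRIK4, which codes for a subunit that needs GluK1 to GluK3 partners, had H3K27ac of 6.96 in C4-2BER against 5.09 in C4-2B. Its H3K18ac was 4.64 and 4.65. The log2 ratio of 0.45 for GRIK4 in H3K27ac was the highest among members with a peak in both cell lines, and it stayed below the 2-fold line. Both genes were acetylated in all 4 lists.

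Of the 12 nicotinic genes, 3 were decreased in H3K27ac (8.01% of all genes). CHRNA7 codes for the alpha 7 subunit, which forms channels by itself. It had H3K27ac of 5.62 in C4-2BER against 13.5 in C4-2B, and H3K18ac of 5.24 and 8.20. After rescaling its log2 ratio of -1.27 became -1.0, just inside the 2-fold line, so this call was lost. CHRNA2, a neuronal alpha subunit, had H3K27ac of 3.00 in C4-2BER against 13.0 in C4-2B, with H3K18ac of 3.80 and 6.47. CHRNA4, the alpha subunit of the main brain receptor, had a weak H3K27ac peak of 2.38 in C4-2B only and nearly equal H3K18ac of 4.24 and 4.33. The CHRNA4 call was lost at both stricter thresholds and with any annotated TSS. CHRNA2 and CHRNA7 thus kept both marks in both cell lines at a lower H3K27ac level in C4-2BER.

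CHRNA5, CHRNA3 and CHRNB4 lie side by side on chromosome 15 within 162 kb. CHRNA5, an accessory subunit, had one of the highest H3K27ac promoters of the members, at 11.3 in C4-2BER against 17.3 in C4-2B, with H3K18ac of 6.05 and 8.00. CHRNA3 was lower and nearly even, with H3K27ac of 3.28 and 2.91 and H3K18ac of 4.39 and 4.67. CHRNB4, the beta subunit that pairs with CHRNA3, had H3K27ac of 2.45 in C4-2BER only, with H3K18ac of 2.64 and 2.85. Over the whole cluster, H3K18ac peaks covered 25.6% of the bases in C4-2BER against 22.6% in C4-2B. The cluster as a whole was therefore acetylated in both cell lines, and the CHRNB4 call rests on a weak peak. CHRNA6 and CHRNB3, neighbours on chromosome 8, had H3K18ac in C4-2BER only, at 2.33 and 2.14, with no H3K27ac promoter peak in either line. A C4-2B peak of 2.18 lay 1097 bp from the CHRNB3 start, just outside the window, and the CHRNB3 call was lost with the 500 and the 2000 bp window. The CHRNA6 call was lost with any annotated TSS. Both calls were lost at a fold enrichment of 4 and at a −log10 q-value of 5.

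Among the 19 GABA-A genes, 1 was increased in H3K27ac (3.31% of all genes), GABRB1, and none was decreased (8.01% of all genes). In H3K18ac 1 was increased (2.1% of all genes), GABRA2, and 2 were decreased (6.12% of all genes), GABRA4 and GABRB2. GABRE, the gene of the epsilon subunit on the X chromosome, had H3K27ac of 9.60 in C4-2BER against 18.8 in C4-2B and H3K18ac of 6.44 and 9.52. Its H3K27ac ratio of 1.96 stayed under the 2-fold line. GABRA5 and GABRG3, both on chromosome 15, were acetylated in all 4 lists. GABRG3, a gamma subunit, had H3K27ac of 8.16 in C4-2BER against 11.2 in C4-2B, and GABRA5, an alpha subunit found in hippocampus, had 5.52 and 4.40. In H3K18ac both were lower in C4-2BER, at 6.32 and 10.5 for GABRG3 and 4.67 and 6.01 for GABRA5.

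The chromosome 4 cluster of GABRG1, GABRA2, GABRA4 and GABRB1 was nearly bare, and H3K18ac peaks covered 0.968% of it in C4-2BER against 0.647% in C4-2B. In that cluster GABRB1, a beta subunit, had an H3K27ac promoter peak of 2.80 in C4-2BER only. GABRA2, an alpha subunit, had H3K18ac of 2.83 in C4-2BER only, and its window also held the TSS of a non-coding gene 179 bp away. The calls of GABRB1 and GABRA2 were lost at both stricter peak thresholds. GABRD, the gene of an extrasynaptic subunit, had close promoter values, with H3K27ac of 2.76 and 2.85 and H3K18ac of 3.45 and 2.93. The H3K18ac values come from peaks of unlike width, 2945 bp in C4-2BER against 20499 bp in C4-2B. H3K18ac peaks covered 39.0% of the gene body in C4-2BER against 100% in C4-2B.

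Among the G protein-coupled members, CHRM2 and GRM6 were decreased in H3K18ac, and none was called in H3K27ac. Of the muscarinic genes, CHRM1 had H3K27ac of 5.28 in C4-2BER against 5.36 in C4-2B and H3K18ac of 4.72 and 4.81. CHRM3, the receptor of smooth muscle and glands, had H3K27ac of 2.77 and 3.15 and H3K18ac of 3.74 and 5.44. CHRM4 had H3K27ac of 2.59 in C4-2BER against 4.69 in C4-2B and H3K18ac of 3.42 and 5.01, a ratio under 2 in both marks. Among metabotropic glutamate receptor genes, GRM8 was even in H3K27ac at 3.93 and 4.01, and GRM2, GRM4 and GRM8 had peaks in all 4 lists. GRM6, the receptor of retinal bipolar cells, had H3K18ac of 2.62 in C4-2B only.

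Apart from GRIN3A, the decreased H3K18ac promoters were weak. The other 9 were CHRM2, CHRNA9, GABRA4, GABRB2, GRIA4, GRID2IP, GRIN1, GRIN2B and GRM6. Each had a peak in C4-2B only, with fold enrichments from 2.23 at GRIN2B to 3.31 at GABRB2. None of the 9 had H3K27ac in either cell line. For CHRNA9, CHRM2 and GABRB2 the nearest C4-2BER peak lay just outside the window, at 1293, 1176 and 1461 bp, and that of CHRNA9 had a fold enrichment of 3.94. All 9 calls were lost when peaks were required to reach a fold enrichment of 4 or a −log10 q-value of 5. The difference at these 9 genes thus lies in faint peaks of a single list.

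The RE1 element, bound by the repressor REST that silences neuronal genes outside neurons, was searched in the same windows. It was written as TCAGCACC, 2 free bases and GGACAGC, with up to 2 mismatches in the 15 letters and on both strands. A match was found for 7 of 66 members (10.6%) and for 412 of all 20033 windows (2.06%). Of the 17 members without a promoter peak, 5 held a match (29.4%), and of the 49 with one, 2 did (4.08%). Over all protein-coding genes the shares were 2.12% without a promoter peak and 2.05% with one. Of the 7 matches of the members, 5 are shown as examples, with capitals for the letters that fit the element and coordinates in GRCh38. The genes were taken by the match and not by their acetylation.
CHRM4 (chr11:46392716-46392732, plus strand): TCAGCACCtcGGAgAGC
GLRA1 (chr5:151924755-151924771, plus strand): TCAGCACCacGGAgAGC
GLRA3 (chr4:174828937-174828953, plus strand): TCAGCACCttaGACAGC
GRIA2 (chr4:157220391-157220407, minus strand): TCAGCACCgaGGACAGC
GRIN1 (chr9:137139261-137139277, plus strand): TCAGCACCgcGGACAGC
GRIA2 and GRIN1 fitted the element without a mismatch, at -329 and 115 bp from the TSS. No peak of any list lay over 6 of the 7 matches. The exception was that of CHRM4, at -948 bp from its TSS, which lay under peaks of 4.69 in C4-2B H3K27ac, 3.42 in C4-2BER H3K18ac and 5.01 in C4-2B H3K18ac. A match of letters is not evidence of binding, and REST occupancy was not measured.

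Over the gene bodies the receptor genes differed from other genes by their length. Their median length was 103 kb, against 27.5 kb for all protein-coding genes. An H3K27ac peak lay over 42 of 66 bodies in C4-2BER (80.3% of all genes) and over 44 in C4-2B (79.4%). For H3K18ac the counts were 60 in C4-2BER (89.3% of all genes) and 59 in C4-2B (90.9%). Peaks covered little of these bodies. The median share under H3K27ac peaks was 0.348% (C4-2BER) and 0.344% (C4-2B), and for all genes it was 6.88% and 5.51%. Under H3K18ac peaks it was 2.34% and 3.52%, against 13.7% and 13.4%.

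The covered length of a body was compared by a ratio of 2. It was at least 2 times higher in C4-2BER for 9 members in H3K27ac (13.6%, against 14.4% of all genes) and for 6 in H3K18ac (9.09%, against 10.7%). It was at least 2 times higher in C4-2B for 9 members in H3K27ac (13.6%, against 5.82%) and for 17 in H3K18ac (25.8%, against 13.3%). The members with more H3K18ac in C4-2B included GRIK3, GRIK2, GRIN3A, GRM4, GRM6 and CHRM3. Peaks of the cell lines that touched were also joined into regions. Of 164 H3K27ac regions over member bodies, 40 were seen in C4-2BER only (24.4%, against 26.3% over all genes) and 46 in C4-2B only (28.0%, against 19.9%). Of 768 H3K18ac regions, 185 were in C4-2BER only (24.1%, against 23.8%) and 248 in C4-2B only (32.3%, against 23.5%). The 248 were unevenly spread, with 29 at GRIK3, 25 at CHRM3 and 24 at GRIK2, so the pooled share leans on these genes. When a −log10 q-value of 5 was required the order of these counts turned. For H3K18ac 41 regions were then in C4-2BER only (30.1%, against 29.7% over all genes) and 22 in C4-2B only (16.2%, against 9.92%). For H3K27ac the counts were 18 (22.2%, against 23.2%) and 14 (17.3%, against 9.98%). All genes thus also had more regions in C4-2BER only at this threshold, and the C4-2B only share stayed higher among the members.

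**Figure D3:**
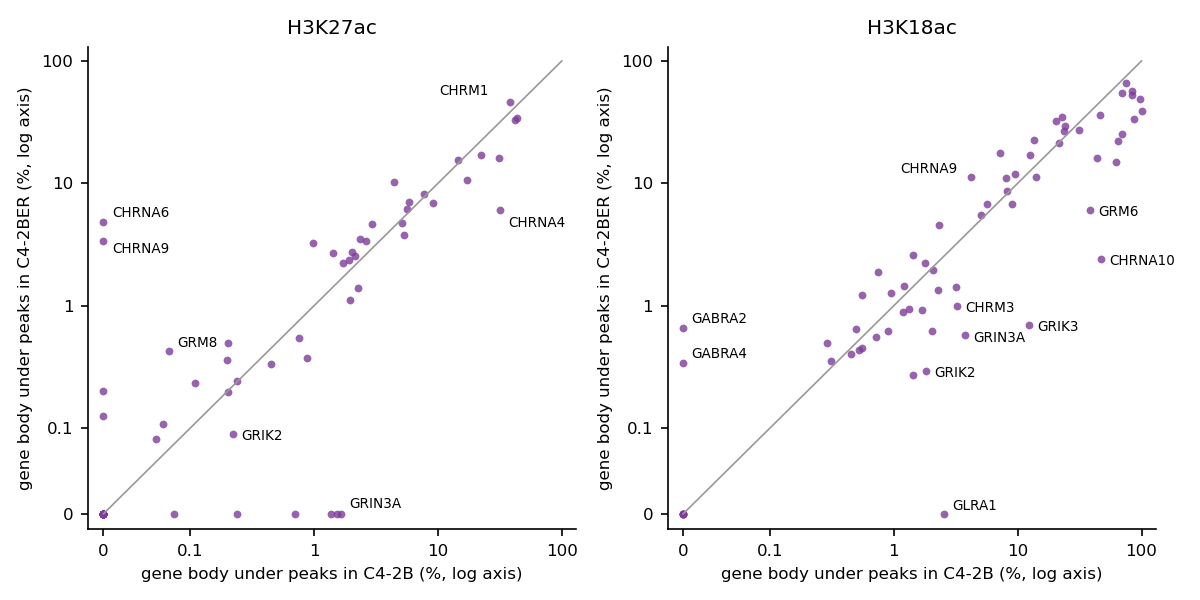
Share of each of the 66 gene bodies under peaks (percent, log axes with 0 drawn at the edge) in C4-2B (x axis) and C4-2BER (y axis) for each mark, and the line of equality. GRIK3, GRIN3A and GRIK2 lie far below the line in H3K18ac, with 12.3%, 3.78% and 1.82% in C4-2B against 0.694%, 0.572% and 0.294% in C4-2BER.

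GRIK3, the gene of the kainate subunit GluK3, had the largest gap in the number of peaks. H3K18ac peaks lay at 31 places over its 239 kb in C4-2B, covering 12.3%, and at 1 place in C4-2BER, covering 0.694%. The peaks in C4-2B were low throughout, from 2.18 to 3.31 with a median of 2.44, and none of them reached a −log10 q-value of 5. The single C4-2BER peak was at 2.85, and its promoter peak lay outside the gene body. No H3K27ac peak lay over GRIK3 in either cell line. The gap is therefore in many faint peaks of 1 mark, spread along the gene rather than gathered at its start.

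GRM4, a presynaptic metabotropic receptor gene, was under H3K18ac peaks over 22% of its 137 kb in C4-2BER against 64.0% in C4-2B. It had 18 and 25 peaks, since those of C4-2B were broader. CHRM3 had 8 peaks in C4-2BER against 30 in C4-2B, with 0.999% and 3.26% covered. GRIK2, over 1119 kb, had 6 and 29. All of these gaps were in low peaks, with median fold enrichments in C4-2B of 2.57 for GRM4, 2.73 for CHRM3 and 2.76 for GRIK2. CHRNA4 was covered for 48.5% in C4-2BER against 97.1% in C4-2B by H3K18ac, and for 6.03% and 31.6% by H3K27ac. Among genes covered in both cell lines, CHRNA10 had the highest ratio, at 2.42% and 47.0% in H3K18ac over a body of only 5.80 kb, and is named after its values were seen.

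**Figure D4:**
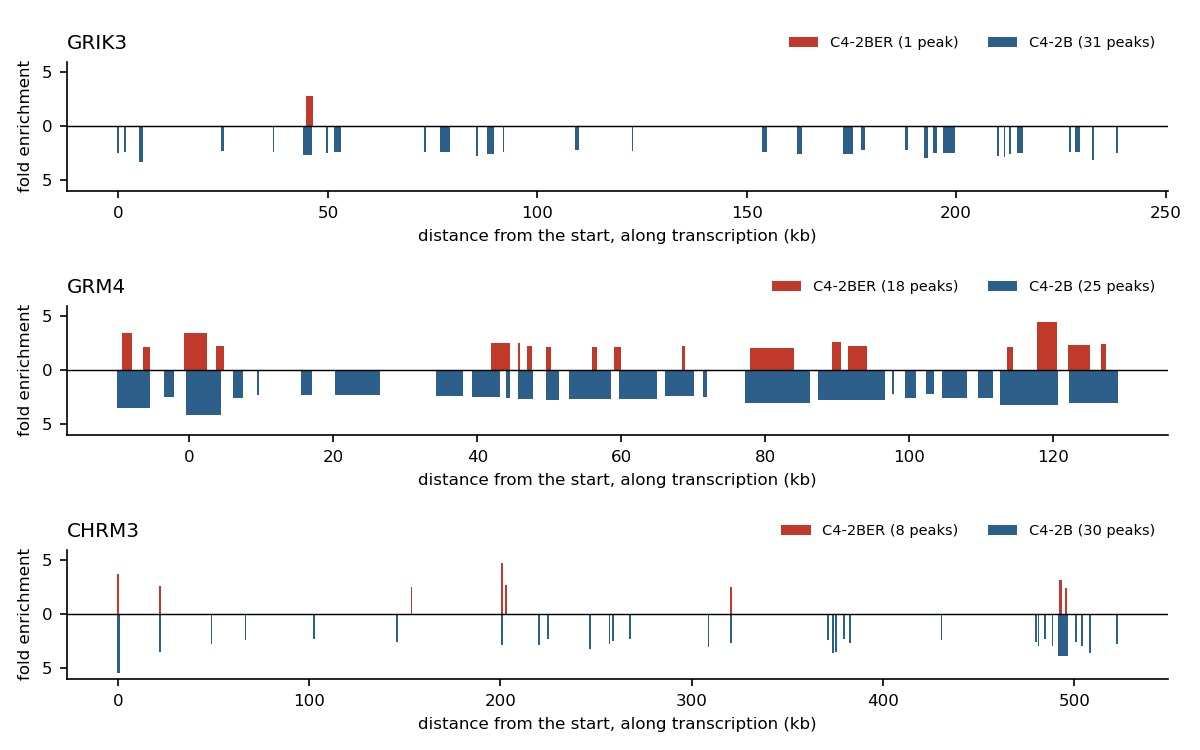
H3K18ac peaks along GRIK3, GRM4 and CHRM3 by distance from the TSS (x axis, kb), with their fold enrichment (y axis) drawn upward for C4-2BER (red) and downward for C4-2B (blue). C4-2B has 31 peaks against 1 over GRIK3, 25 broader peaks against 18 over GRM4, and 30 against 8 over CHRM3, nearly all below a fold enrichment of 5.

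Other long genes did not follow this. GRIK4 had 77 H3K18ac peaks in C4-2BER against 74 in C4-2B, over 29.6% and 24.0% of its body. GABRG3 had 57 in each cell line, over 8.72% and 8.27%, although 17 of its regions were seen just in C4-2BER and 18 just in C4-2B. GRM7, a presynaptic receptor gene of 972 kb, had 38 and 41 H3K18ac peaks but 0 and 5 of H3K27ac. CHRNA7 had 35 and 24 H3K18ac peaks over 17.0% and 12.6%, and the end of this gene has a near-identical copy, CHRFAM7A, so peaks there may be shared between the copies. Long members thus included genes with more H3K18ac peaks in C4-2BER (such as CHRNA7), genes with nearly equal numbers (GRIK4, GABRG3, GRM7) and genes with fewer (GRIK3, CHRM3, GRIK2).

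Some peaks inside genes were seen in 1 cell line only and were stronger than these. The 4 strongest of each mark and direction, outside the promoter windows, were picked by their fold enrichment. In C4-2BER the leading H3K27ac peak was in an intron of GRIA3, an AMPA subunit gene on the X chromosome, 263 kb after its TSS, with a fold enrichment of 5.57. At the same place (chrX:123446914-123448411) H3K18ac was 5.06 in C4-2BER, and neither mark had a peak in C4-2B. CHRNA7 had a similar site in an intron 23.4 kb after its TSS, with H3K27ac of 4.12 and H3K18ac of 4.77 in C4-2BER and no peak in C4-2B. It is printed because it was the one nearest to a TSS of these shared sites, with CpG dinucleotides in capitals.
CHRNA7 intron (chr15:32053712-32054011, plus strand): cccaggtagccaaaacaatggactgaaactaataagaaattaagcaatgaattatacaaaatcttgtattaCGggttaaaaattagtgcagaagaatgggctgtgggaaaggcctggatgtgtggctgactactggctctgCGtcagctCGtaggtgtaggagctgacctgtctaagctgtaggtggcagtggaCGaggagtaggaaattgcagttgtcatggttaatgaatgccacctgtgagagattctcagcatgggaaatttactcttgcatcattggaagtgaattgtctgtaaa
This stretch of 300 bases held 4 CpG dinucleotides at a GC content of 43.3%, and it overlaps no annotated exon. In the other direction GRM7 had an intronic H3K27ac peak of 6.80 in C4-2B only, 523 kb after its TSS, where H3K18ac was 3.47 in C4-2BER against 5.46 in C4-2B. GRIK2 had H3K18ac of 4.09 and H3K27ac of 2.94 in C4-2B only, at -205 kb from the canonical TSS but inside the annotated gene. At its promoter CHRNA7 was lower in C4-2BER, and the promoter of GRIA3 had no H3K27ac in either cell line and H3K18ac of 2.52 and 2.66.

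Genes that work with these receptors were counted by lists. For all genes the increased and decreased shares, given above, were 3.31% and 8.01% in H3K27ac and 2.1% and 6.12% in H3K18ac. Of 42 other transmitter receptors (GABA-B, serotonin, dopamine, adrenergic, histamine and purine receptors and the glycine beta subunit), 5 were increased and 4 decreased in H3K27ac, and 1 and 4 in H3K18ac. HRH3, the presynaptic histamine receptor, was decreased in both marks, with no H3K27ac peak in C4-2BER against 14.0 in C4-2B and H3K18ac of 2.62 against 6.05. HTR3A, the serotonin-gated channel, had H3K27ac of 4.44 and 14.5, and ADRA2A, an adrenergic receptor, ran the other way at 7.38 and 3.27. Of 38 scaffold and auxiliary proteins, 3 were increased and 3 decreased in H3K27ac, and 0 and 5 in H3K18ac. RIC3, the chaperone of the alpha 7 nicotinic receptor, was decreased in both marks, with H3K27ac of 11.6 against 25.1 and H3K18ac of 4.47 against 9.68. NETO2, an auxiliary subunit of kainate receptors, had H3K27ac of 20.2 and 43.4, and its relative NETO1 had 20.6 and 33.1, under the 2-fold line. The increased ones were SHISA9, an auxiliary protein of AMPA receptors, at 5.51 and 2.55, and NLGN3 and DLGAP1, synaptic proteins with peaks of 3.31 and 2.25 in C4-2BER only.

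Of 26 genes for synthesis, transport and breakdown of the transmitters, 1 was increased and 1 decreased in H3K27ac, and 2 and 2 in H3K18ac. ABAT, which breaks down GABA, was the decreased one, at 9.05 in C4-2BER against 20.5 in C4-2B. SLC1A2, a glial glutamate transporter, was the increased one, with a weak peak of 2.45 in C4-2BER only. The genes named from these lists were chosen as examples with their values in view.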

How the data were processed

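ChIP-Seq peaks of H3K27ac and H3K18ac came from 10 libraries of C4-2B and C4-2BER, 8 of them ChIP (2 for each pair of mark and line) and 2 input. Reads were aligned to GRCh38, blacklisted regions, low-quality alignments and duplicates were removed, replicates were merged and peaks were called with macs2, per the study's methods. The submitters' processing notes name bcl2fastq 2.17, Trimmomatic 0.33 and Bowtie2 2.2.3, and how the input libraries were used is not given in the sources used here. Each peak of the 4 deposited broad peak lists has a fold enrichment (a ratio of ChIP signal to background) and a −log10 q-value, both from the authors. The lists hold no counts, so depth and counting error are unknown. Reads and the study's ATAC-seq, RNA-seq and methylation data were not analysed here.

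The canonical TSS and gene bodies were taken from GENCODE release 44 on chromosomes 1 to 22, X and Y. Chromosome lengths were compared with the lists, and 0 peaks passed a chromosome end. The promoter value was the highest fold enrichment of a peak touching the 1000 bp on both sides of the canonical TSS. Calls were made by a peak in 1 cell line only or a ratio of 2. No test was run, since replicates were merged. Intervals for medians are 95% order-statistic intervals over genes, and they cover the spread between genes only. The alternatives were windows of 500 and 2000 bp, any annotated TSS, peaks with a fold enrichment of 4 or a −log10 q-value of 5, equal numbers of the highest-fold peaks, 200 bp of overlap, rescaling over shared regions, calls by presence or a ratio of 1.5, leaving out GRID2IP, gene bodies without the promoter window, and a stricter overlap for shared peaks. Scripts were tested on simulated data, and used Python 3.11.15 with numpy 2.4.6, pandas 2.3.3 and pysam 0.24.0.

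Named genes were, per mark, those with a changed promoter, the 5 with the highest promoter value and body coverage per list, the 5 with the most regions of 1 cell line only in each direction, those with both marks in 1 cell line only, and GRID2IP. Other genes are named as examples of a family, cluster, element or list. The members, gene lists and comparisons were chosen with earlier results of these data known. Some genes of the lists are counted but not reported here by name.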

Additional observations from a re-analysis of the deposited data

How the results depend on the processing

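No paired analysis was possible because each peak list pools the replicates of its mark and line. For the counts and medians, 74 values recomputed under the alternatives stayed within 1.5 times the reported count or within the interval of the median. A similar count can hold other genes. At −log10 q-values from 5 upward 2 promoters were still increased in H3K27ac, but CHRNB4 and GABRB1 were lost and CHRNA3 and GRID1 took their place. A further 32 values moved, most under stricter peak thresholds. With a fold enrichment of at least 4, H3K27ac promoter peaks were left at 8 members in C4-2BER and at 15 in C4-2B, and H3K18ac ones at 13 and 22. Increased promoters numbered 0 in each mark. Regions seen in 1 cell line only numbered 7 in C4-2BER (11.3%, against 15.7% over all genes) and 20 in C4-2B (32.3%, against 13.4%) for H3K27ac. For H3K18ac they numbered 12 (16.2%, against 15.2%) and 21 (28.4%, against 19.2%). At −log10 q-values from 5 upward, promoter peaks were left at 14 and 15 members for H3K27ac and at 22 and 23 for H3K18ac. Decreased H3K18ac promoters numbered 3. The regions were then 18, 14, 41 and 22 in the same order, so that in both marks C4-2BER had more, the opposite of the reported counts. Over all genes C4-2BER also had more, at 23.2% against 9.98% for H3K27ac and 29.7% against 9.92% for H3K18ac. Beside these, the C4-2B only shares of the members stayed higher, at 17.3% and 16.2%. Their C4-2BER only shares were close to those of all genes, at 22.2% and 30.1%. With equal numbers of the highest-fold peaks, H3K27ac promoter peaks were left at 11 and 15 members, and 1 promoter was increased in each mark. The regions were then 10, 20, 91 and 130 (13.9%, 27.8%, 24.2% and 34.6%, against 16.2%, 14.7%, 26.1% and 22.7% over all genes). With any annotated TSS, 1 H3K27ac promoter was increased and 5 H3K18ac promoters were decreased, and with a window of 2000 bp 6 were decreased. By presence alone, 3 H3K27ac promoters were decreased (4.55%, against 2.28% of all genes). The other promoter counts of this paragraph are given without the shares of all genes and describe the members only. Rescaling moved the H3K18ac median to -0.091. Of the values for single genes, 259 kept their direction within a factor of 1.5 and 1 reversed, GRIN2D in H3K27ac, with 0.24 in the 2000 bp window, where a peak of C4-2BER upstream is counted. The stricter thresholds remove peaks by construction, and depth, which would set how far faint peaks can be trusted, is unknown.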
